A study of Rattus norvegicus with 6 samples.

Results

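The 10 genes Cd3d, Cd3e, Cd3g, Cd2, Cd4, Cd8a, Cd8b, Gzmb, Prf1 and Nkg7, which mark T cells and natural killer (NK) cells, were followed in the ovaries of rats early in pregnancy. They were taken by name, and every probe set that the platform annotation gives to 1 of them alone was kept. All 10 genes were on the array, out of 14217 genes measured, and they had 14 probe sets: Cd8a had 3, Cd3e and Gzmb had 2 each, and the other genes had 1. The Affymetrix arrays numbered 6, and each carried RNA from 1 ovary pool. The overfed group (3 pools) came from females fed a liquid diet by total enteral nutrition for 28 days, with 220 kcal for each kg of metabolic weight. The lean group (3 pools) came from females fed in the same way with 155 kcal for each kg. All females were mated with lean males, and whole ovaries were frozen 4.5 days post coitum. Strain, age and the number of animals in a pool are not given in the labels used here, so p-values measure the spread between pools.

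The values are logarithms, read here as log2 (with another base the folds would differ), and each probe set was centred by its median across the 6 arrays. Differences between pools are therefore known, but the level of a gene and its signal over background are not, so the genes cannot be ordered by level and neither these genes nor ovarian markers can be checked for presence. With 6 values and a median of 0, the middle pair of each probe set always has equal size and opposite sign. Array medians lay between -0.0093 and 0.0096. The mean over 9 hybridization control probe sets did not overlap between the groups, at -0.041, -0.055 and -0.25 in the overfed pools, against 0.045, 0.060 and 0.50 in the lean pools. Lean pool 3 was also highest in the beta-actin 3′ minus 5′ value, at 0.36 against at most 0.061 in the other pools. The part of either in the results was not tested. Overfed pool 1 had the widest spread over probe sets (SD 0.29, against 0.14 in the narrowest array).

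T cells recognise antigen through a receptor whose signal is carried by the Cd3 chains, here Cd3d, Cd3e and Cd3g. The coreceptors Cd4 and Cd8 bind MHC molecules and mark helper and cytotoxic T cells. Cytotoxic T cells and NK cells kill through granules that hold perforin (Prf1), which opens pores in the target membrane, and granzymes such as Gzmb, which enter and start cell death. In the ovary, lymphocytes are found in the stroma and in corpora lutea. In rats the markers are not exclusive, since macrophages also carry Cd4 and NK cells also carry Cd8a.

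The Cd3 genes lie close together on rat chromosome 8, and Cd3g and Cd3d are transcribed away from each other. The promoter table from RefSeq (build GRCr8) held 8 of the 10 genes and puts 1600 bases between the starts of Cd3g and Cd3d. The 250 bases before the start are shown for this pair and, as the cytotoxic counterpart, for Gzmb and Prf1. The pair was picked since Cd3d was the one gene of the 10 whose groups did not overlap and its neighbour's did. Of all genes, 6.75% were without overlap and higher in overfed ovaries, as Cd3d was, and 6.34% lower. So 1 of 10 is near the share of all genes and is not read as a result about Cd3d. Each sequence runs 5′ to 3′ on the gene's strand. Capitals mark AGGAAG, a form of the ETS factor motif, and TGTGGT, the core of the RUNX motif, on either strand.
Cd3d (chr8:54185269-54185518, plus strand): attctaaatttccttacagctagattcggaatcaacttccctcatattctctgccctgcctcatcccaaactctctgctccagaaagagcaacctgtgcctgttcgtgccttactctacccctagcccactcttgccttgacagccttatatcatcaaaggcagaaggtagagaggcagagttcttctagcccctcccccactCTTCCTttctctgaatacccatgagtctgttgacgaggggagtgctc
Cd3g (chr8:54183919-54184168, minus strand): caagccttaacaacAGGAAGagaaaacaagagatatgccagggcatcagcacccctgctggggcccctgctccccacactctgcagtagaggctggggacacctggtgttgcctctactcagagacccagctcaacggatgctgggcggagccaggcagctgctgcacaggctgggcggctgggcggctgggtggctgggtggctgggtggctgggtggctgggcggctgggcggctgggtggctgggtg
Gzmb (chr15:34462470-34462719, minus strand): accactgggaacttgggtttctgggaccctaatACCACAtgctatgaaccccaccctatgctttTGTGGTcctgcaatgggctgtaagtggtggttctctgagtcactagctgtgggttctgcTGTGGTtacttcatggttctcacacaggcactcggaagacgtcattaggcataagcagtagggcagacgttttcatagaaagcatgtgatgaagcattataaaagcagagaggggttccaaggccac
Prf1 (chr20:29788790-29789039, plus strand): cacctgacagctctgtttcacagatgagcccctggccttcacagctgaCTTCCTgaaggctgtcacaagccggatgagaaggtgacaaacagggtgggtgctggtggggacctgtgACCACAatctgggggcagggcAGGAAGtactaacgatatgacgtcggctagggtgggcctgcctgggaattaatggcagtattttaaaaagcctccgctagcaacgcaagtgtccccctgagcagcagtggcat
The ETS letters were found in 5 of the 8 promoters (Cd3d, Cd3e, Cd3g, Prf1 and Nkg7), against 29.5% of all 33469 promoters of the table. The RUNX letters were found in 4 (Cd2, Prf1, Gzmb and Nkg7), against 14.5%. The Gzmb window held 3 of the latter, and none of the Cd3 windows held any. The marked stretches do not overlap one another. A match describes the letters only, and no binding was measured here.

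No T or NK cell gene passed the test between overfed and lean ovaries, and for 9 of the 14 probe sets the difference was smaller than its own standard error. Of the 14 probe sets, 0 passed limma's adjusted p of 0.05 (smallest adjusted p = 0.822), as did 0.0% of the 31042 probe sets tested, and 0 had an unadjusted p under 0.05, where 6.67% of all probe sets did. The groups did not overlap in 1 probe set, that of Cd3d, which was higher in overfed ovaries. Over all probe sets, 7.35% were without overlap in that direction and 5.33% in the other. With 1 probe set a gene, 8 of the 10 differences were above 0 and 2 below, where 7423 of all 14217 genes were above 0. Over all 14 probe sets, 9 were above 0, and 54.6% of all tested probe sets were. The median difference was 0.077 over the 10 genes, against 0.0070 over all genes. Over the 14 probe sets it was 0.044, against 0.015 over all probe sets. RNA was made from whole tissue, so fewer cells of a type and less RNA per cell cannot be told apart.

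**Figure D1:**
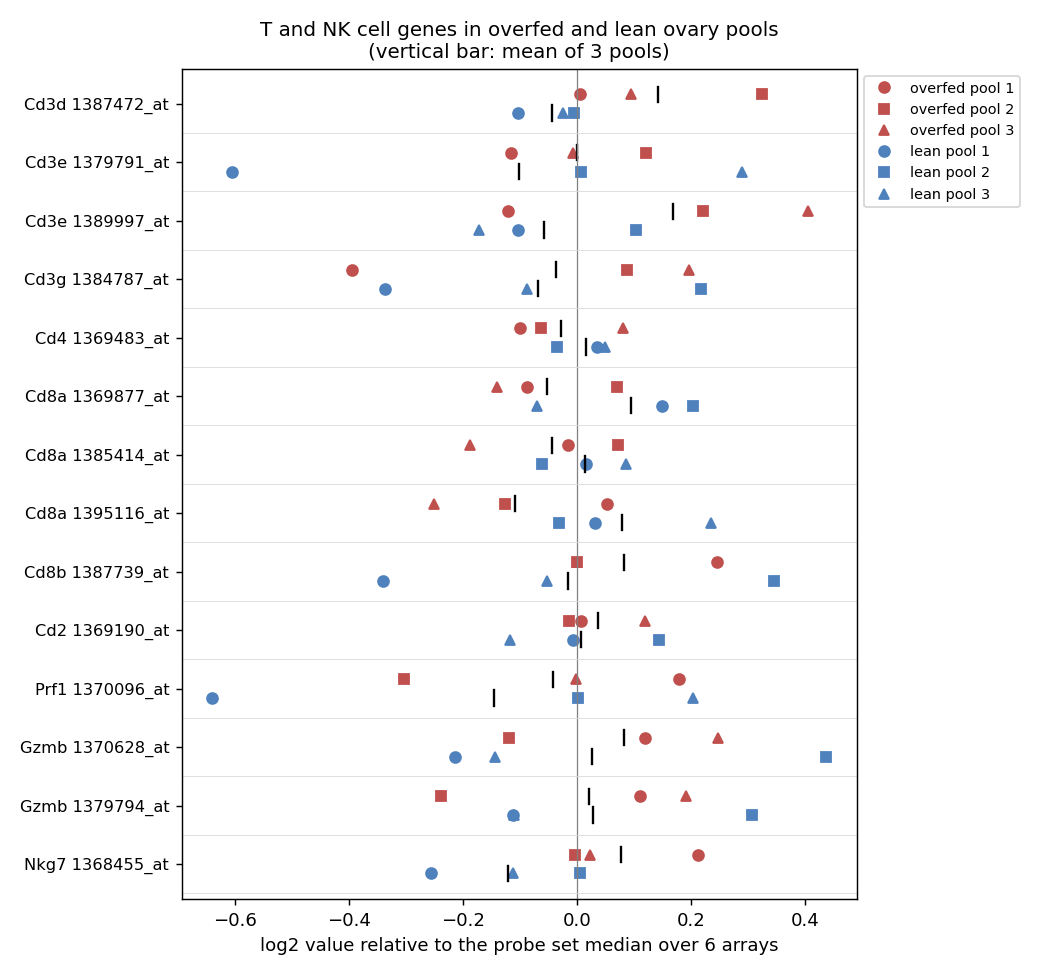
Relative log2 values (horizontal axis) of the 14 T and NK cell probe sets in 3 overfed pools (red, upper row of each pair) and 3 lean pools (blue, lower row), with the mean of each group as a vertical bar. The groups overlap in all probe sets but that of Cd3d, and lean pool 1 (blue circle) is the lowest pool in 6 of the 10 genes by their representative probe set.

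Among the Cd3 chains, Cd3d, which carries a signalling motif in its tail and pairs with Cd3e, had relative log2 values of 0.0054, 0.32 and 0.095 in overfed pools 1 to 3, against -0.10, -0.0054 and -0.024 in lean pools 1 to 3. All overfed pools lay above all lean pools, but the gap rested on the middle pair of values, 0.0054 in overfed pool 1 and -0.0054 in lean pool 2. The log2 difference was 0.19 (SE 0.10, 95% interval -0.059 to 0.43, limma adjusted p = 0.829), or 1.14-fold. The smallest p that 3 against 3 pools allow, 0.1, was reached in a two-sided exact permutation test. The difference was 0.095 without overfed pool 2, which held the highest value.

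Cd3e, the chain shared by both Cd3 pairs of the receptor, was measured by 2 probe sets that ranked the pools differently. The first had log2 values of -0.12, 0.12 and -0.0070 in the overfed pools, against -0.61, 0.0070 and 0.29 in the lean pools. The lean pools held both the lowest and the highest value, and the difference was 0.10 (SE 0.22, interval -0.41 to 0.62, limma adjusted p = 0.959). The second had -0.12, 0.22 and 0.41 in the overfed pools, against -0.10, 0.10 and -0.17 in the lean pools. Here overfed pools 2 and 3 were above every lean pool and overfed pool 1 was not, and the difference was 0.23 (SE 0.15, interval -0.13 to 0.58, limma adjusted p = 0.844). Over the 6 arrays Pearson's r between both probe sets of Cd3e was 0.20. The first probe set turned to -0.15 without lean pool 1.

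Cd3g, the partner of Cd3e in the other pair, had log2 values of -0.40, 0.088 and 0.20 in the overfed pools, against -0.34, 0.22 and -0.088 in the lean pools. Pool 1 was the lowest in each group, and the ranges were nearly the same. Its difference was 0.032 (SE 0.20, interval -0.43 to 0.49, limma adjusted p = 0.986), and it was -0.10 without lean pool 1. Cd3g and the second Cd3e probe set varied together (r = 0.78 over 6 arrays), which describes these arrays only.

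The coreceptors did not separate the groups either. Cd4 was the least variable of the 14 probe sets, with an SD of 0.071 over the 6 pools against a median of 0.14 over all probe sets. Its log2 values were -0.10, -0.064 and 0.080 in the overfed pools, against 0.036, -0.036 and 0.050 in the lean pools. The difference was -0.045 (SE 0.085, limma adjusted p = 0.954), and its interval of -0.25 to 0.16 is the narrowest here, from 0.843 to 1.11 as a fold. Leaving out overfed pool 1 gave a difference of -0.0083, and leaving out overfed pool 3 gave -0.099.

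All 3 probe sets of Cd8a, the chain found on cytotoxic T cells and on rat NK cells, had differences below 0. The representative had log2 values of -0.088, 0.070 and -0.14 in the overfed pools, against 0.15, 0.20 and -0.070 in the lean pools. Overfed pool 2 lay above lean pool 3, so the groups overlapped, and the difference was -0.15 (SE 0.11, interval -0.40 to 0.10, limma adjusted p = 0.851). The other 2 probe sets were at -0.057 (SE 0.097) and -0.19 (SE 0.11), with limma adjusted p-values of 0.946 and 0.835. They correlated with the representative at r = 0.26 and 0.045 over the 6 arrays and with each other at 0.70, so the 3 share a sign and not a pool order.

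Cd8b, which pairs with Cd8a on cytotoxic T cells and is not part of the Cd8a homodimer of NK cells, had log2 values of 0.25, -0.00072 and 0.00072 in the overfed pools, against -0.34, 0.35 and -0.053 in the lean pools. Both extremes were lean pools, 0.69 apart. The difference was 0.098 (SE 0.18, interval -0.32 to 0.52, limma adjusted p = 0.951), opposite in sign to that of Cd8a. Within arrays, Cd8a minus Cd8b was -0.33, 0.071 and -0.14 in the overfed pools, against 0.49, -0.14 and -0.017 in the lean pools, and these overlapped as well.

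Cd2, an adhesion receptor of T and NK cells that binds Cd48 in rodents, had log2 values of 0.0077, -0.014 and 0.12 in the overfed pools, against -0.0077, 0.14 and -0.12 in the lean pools. The overfed pools fell inside the range of the lean ones. The difference was 0.031 (SE 0.097, interval -0.20 to 0.26, limma adjusted p = 0.973).

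Of the cytotoxic genes, Nkg7, a granule membrane protein of NK and cytotoxic T cells, had the lowest unadjusted p of the 14 probe sets (0.1). Its log2 values were 0.21, -0.0044 and 0.022 in the overfed pools, against -0.26, 0.0044 and -0.11 in the lean pools. Only lean pool 2 reached into the overfed range, by the middle pair of values. The difference was 0.20 (SE 0.10, interval -0.049 to 0.45, limma adjusted p = 0.822), or 1.15-fold, and it lay between 0.13 and 0.26 with any 1 pool left out. Its p in the two-sided exact permutation test was 0.2.

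Prf1 was the most variable of the 14 probe sets (SD 0.32 over the 6 pools). It had log2 values of 0.18, -0.30 and -0.0016 in the overfed pools, against -0.64, 0.0016 and 0.20 in the lean pools. The lean pools held both ends of the range. The difference was 0.10 (SE 0.23, limma adjusted p = 0.961) with an interval of -0.44 to 0.65, the widest of the 14, and it was -0.14 without lean pool 1.

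Gzmb was measured by 2 probe sets that followed each other closely over the 6 arrays (r = 0.94). The representative had log2 values of 0.12, -0.12 and 0.25 in the overfed pools, against -0.21, 0.44 and -0.14 in the lean pools, and the other had 0.11, -0.24 and 0.19 against -0.11, 0.31 and -0.11. In both, lean pool 2 was the highest of all pools. The differences were 0.057 (SE 0.19, interval -0.39 to 0.50, limma adjusted p = 0.975) and -0.0067 (SE 0.16, interval -0.39 to 0.37, limma adjusted p = 0.997). A further probe set that the annotation gives to Gzmb and to another locus was left out by the rule, and its difference was 0.026 (SE 0.079). Rat granzymes form a family of similar genes, and the files do not show whether the Gzmb probe sets also bind others.

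**Figure D2:**
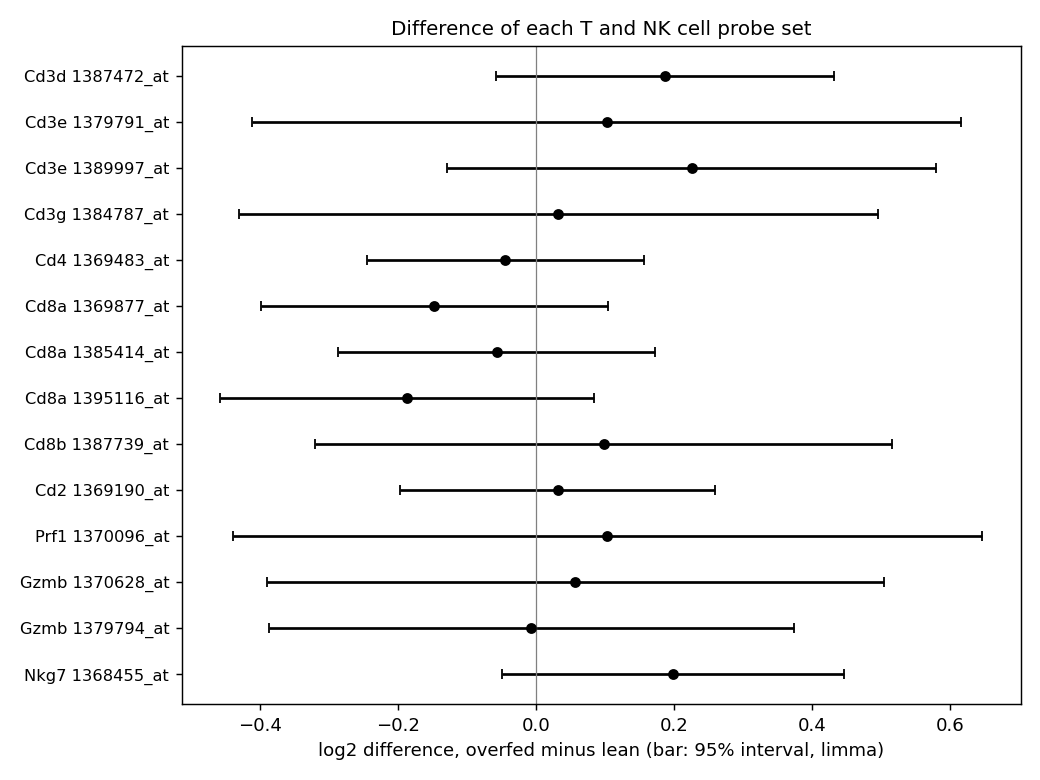
Log2 difference of overfed minus lean pools for each of the 14 probe sets, with limma's 95% interval as a horizontal bar. The axis gives the array identifier of each. Every interval includes 0, and the bounds run from -0.46 to 0.65.

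The intervals bound differences in the deposited values. They do not bound changes in RNA, since signal over background is unknown. Over the 14 probe sets they ran from -0.46 (Cd8a) to 0.65 (Prf1), or 0.728-fold to 1.57-fold. A rise of 1.5-fold lay inside the interval of 2 probe sets, the first of Cd3e and that of Prf1, and a fall of the same size inside that of 0. These bounds hold under the assumption that the logarithm's base is 2, and each is for a single probe set, not adjusted for their number.

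The Cd3 chains of the T cell receptor complex and the cytotoxic genes had differences of nearly the same size, and neither exceeded the spread of the pools. The mean log2 value of the 3 Cd3 chains was -0.17, 0.18 and 0.095 in overfed pools 1 to 3, against -0.35, 0.073 and 0.059 in lean pools 1 to 3. That of Prf1, Gzmb and Nkg7 was 0.17, -0.14 and 0.089 in the overfed pools, against -0.37, 0.15 and -0.018 in the lean pools. In both sets lean pool 1 was the lowest pool. The Cd3 mean was 0.035 ± 0.18 in overfed and -0.072 ± 0.24 in lean ovaries (SD, n = 3 each), a difference of 0.11. The cytotoxic mean was 0.039 ± 0.16 in overfed and -0.080 ± 0.26 in lean ovaries (SD, n = 3 each), a difference of 0.12. Both differences were smaller than the SD between pools, and without lean pool 1 they were -0.031 and -0.026. The means take 1 representative probe set a gene, for Cd3e the first, which was at -0.61 in lean pool 1. The second was at -0.10 there, so the Cd3 value without lean pool 1 depends on that choice. With all probe sets of a gene averaged, the differences over all pools were 0.13 and 0.11. That averaging was not run without lean pool 1. Quantile normalization gave 0.17 for the Cd3 mean and 0.11 for the cytotoxic mean.

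Within arrays, the Cd3 mean minus the cytotoxic mean was -0.34, 0.32 and 0.0052 in the overfed pools, against 0.022, -0.075 and 0.077 in the lean pools. Relative to the median of each probe set, the lean pools kept both sets within 0.077 of each other. In these relative values the cytotoxic genes were above the Cd3 chains in overfed pool 1 and below them in overfed pool 2. Which set had more RNA in a pool is not known. The groups differed by -0.013 in this measure. Leaving out overfed pool 1 gave 0.15, leaving out overfed pool 2 gave -0.18 and leaving out lean pool 3 gave 0.022, so single pools set its sign. The mean of Cd4, Cd8a, Cd8b and Cd2 was 0.016, -0.0023 and 0.015 in the overfed pools, against -0.041, 0.16 and -0.047 in the lean pools.

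**Figure D3:**
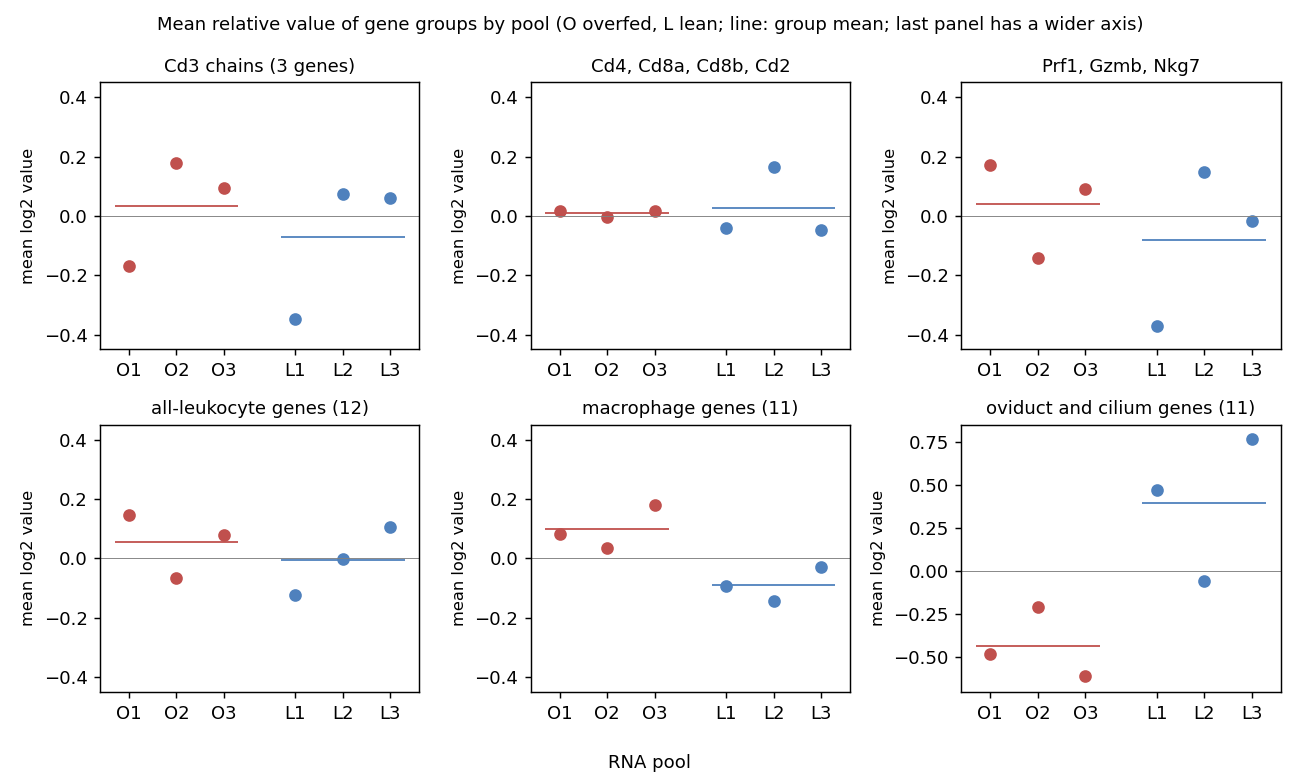
Mean relative log2 value (vertical axis) of 3 sets of T and NK cell genes in the upper row and of 3 sets of marker genes of other cells in the lower row, for each overfed pool (O1 to O3, red) and lean pool (L1 to L3, blue), with a line at each group's mean. Lean pool 1 is the lowest pool for the Cd3 chains (-0.35) and for the cytotoxic genes (-0.37), while the groups separate for macrophage genes and for oviduct and cilium genes.

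Both groups spread to a similar degree, with a median SD over the 14 probe sets of 0.15 in overfed and 0.14 in lean pools, and the lean SD was the larger in 8. By representative probe set, lean pool 1 was the lowest of the 6 pools in 6 of the 10 genes (Cd3d, Cd3e, Cd8b, Prf1, Gzmb and Nkg7) and the highest in 0. Lean pool 2 was the highest in 5 (Cd3g, Cd8a, Cd8b, Cd2 and Gzmb) and the lowest in 0. Lean pool 2 lay above lean pool 1 in 11 of the 14 probe sets, by up to 0.69 in Cd8b. By the same probe sets, leaving out lean pool 1 turned Cd3e, Cd3g, Cd8b, Prf1 and Gzmb below 0. Whichever single pool was left out, Cd3d and Nkg7 stayed above 0, and Cd4 and the representative of Cd8a below 0. The second Cd3e probe set also stayed above 0, between 0.11 and 0.37, and the third of Cd8a below 0, between -0.27 and -0.11.

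**Figure D4:**
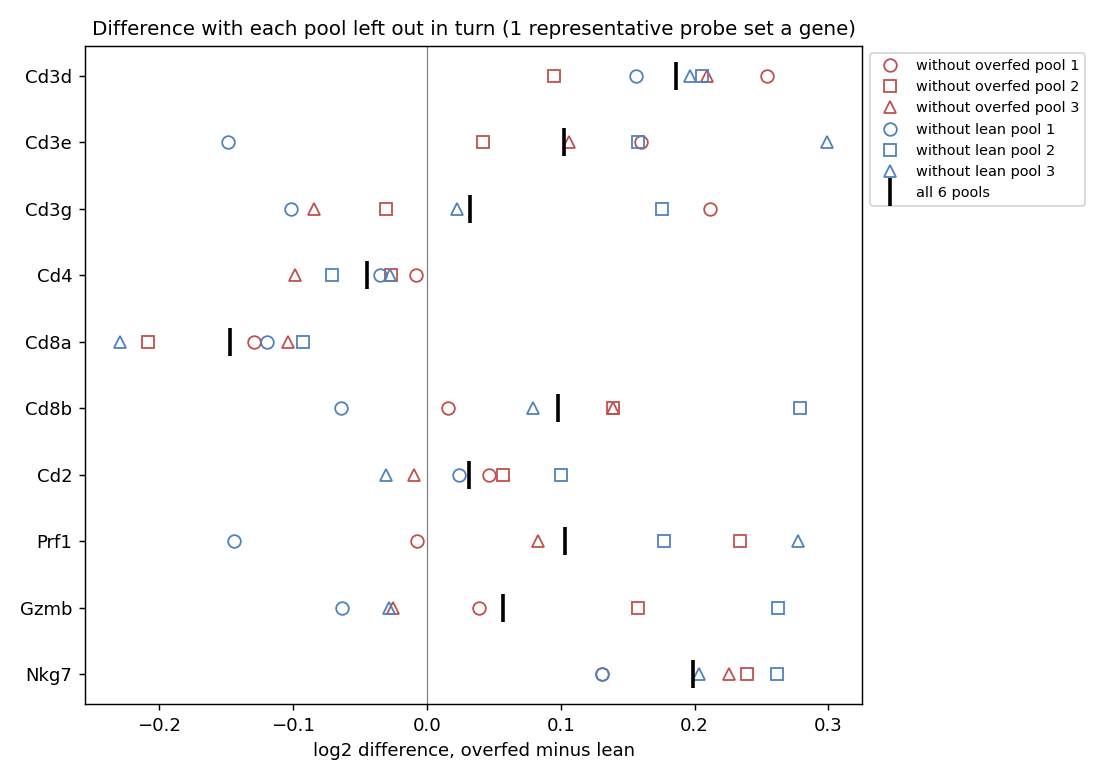
Log2 difference of overfed minus lean (horizontal axis) for the representative probe set of each gene, over all 6 pools (black bar) and with each pool left out in turn (open symbols, red for an overfed and blue for a lean pool). The value without lean pool 1 lies below 0 for Cd3e, Cd3g, Cd8b, Prf1 and Gzmb, and all values of Cd3d and Nkg7 lie above 0.

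Marker genes of other cells also varied between the pools. The 12 all-leukocyte genes had mean log2 values of 0.15, -0.066 and 0.080 in the overfed pools, against -0.12, -0.0031 and 0.11 in the lean pools, and lean pool 1 was again the lowest. Of these genes 8 were higher and 4 lower, from -0.16 to 0.28 with a median of 0.029. The highest was Ptprc, the common leukocyte antigen, at 0.28 (SE 0.11), with its other probe set at 0.15, while Cd53 was at 0.017 (SE 0.14). The mean of the macrophage genes did not overlap between the groups, at 0.037 to 0.18 in the overfed pools, against -0.15 to -0.028 in the lean pools. Of the 11 genes 9 were higher in overfed ovaries and 2 lower, and 5 of the higher were without overlap, where 6.75% of all genes were. Oviduct and ciliated epithelium genes had means of -0.61 to -0.21 in the overfed pools, against -0.056 to 0.77 in the lean pools. Of these 10 of 11 were lower, and 6 of the lower were without overlap, where 6.34% of all genes were. Over all 14217 genes, 7423 were higher and 6794 lower. Smooth muscle genes ranged from -0.57 to 0.86 in the overfed pools, against -0.99 to 0.74 in the lean pools, with lean pool 2 the lowest. The mean of 6 B and plasma cell genes, at -0.22 to -0.030 in the overfed pools, against -0.0012 to 0.18 in the lean pools, did not overlap either. Of these genes 4 were lower and 2 higher, and 3 of the lower were without overlap, where 6.34% of all genes were in that direction. Differences of single neutrophil genes ran from -1.60 to 1.12, with 4 of 6 higher and 2 lower. The mean of these genes overlapped between the groups, as did that of genes of ovarian follicle, luteal and germ cells (7 of 11 higher). Of single markers, Csf1r and Cd68 (macrophages) had differences of 0.24 and 0.032, and Ms4a1 and Cd79b (B cells) -0.33 and 0.12. S100a8 and S100a9 (neutrophils) were at 1.08 and 1.12, and Foxj1 and Rsph1 (ciliated epithelium) at -1.06 and -1.69. Myh11 and Cnn1 (smooth muscle) were at 0.061 and -0.063, and Star and Cyp11a1 (ovary) at -0.17 and -0.093. The other probe sets of Myh11 and Star were at -0.045 and -0.14. Since levels are unknown, whether the defining markers of these cells were near 0 cannot be read, and the part of these cells in the values of the T and NK cell genes was not tested.

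Few other genes of T and NK cells separated the groups. Of 62 measured genes in 3 further lists, 32 had differences above 0 and 30 below, and the median log2 difference was 0.016, against 0.0070 over all genes. By limma 0 passed the adjusted threshold and 1 had an unadjusted p under 0.05, where 7.15% of all genes did. Groups did not overlap in 3 genes that were higher and 1 that was lower, against 6.75% and 6.34% of all genes. The gene past the unadjusted threshold was Ncr1, the NK cell activating receptor NKp46, at 0.13, 0.087 and 0.42 in the overfed pools, against -0.16, -0.087 and -0.11 in the lean pools. Every overfed pool was above every lean pool, and the difference was 0.33 (SE 0.11, 1.26-fold, limma adjusted p = 0.688).

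Among 21 genes of T cell receptor signalling, 8 were higher and 13 lower, with a median of -0.035. Their lowest unadjusted p-values belonged to Ptpn22, a phosphatase that restrains receptor signalling (-0.16, SE 0.078, with its other probe set at 0.049), and to the adaptors Fyb1 (0.26, SE 0.14, with its other probe set at 0.0061), Sit1 (0.24, SE 0.12) and Lat (0.16, SE 0.11). Of the 21 genes, only Ptpn22 had groups that did not overlap. Without lean pool 1, Fyb1 was at 0.17, Sit1 at 0.15 and Lat at 0.071, and without overfed pool 3 Sit1 was at 0.14. Among 11 genes of T cell identity, 4 were higher and 7 lower, with Cd7, a surface protein of T and NK cells, at 0.18 (SE 0.080) and no overlap. The interleukin receptor chain Il2rb was at 0.15 (SE 0.090), the transcription factor Tcf7 at 0.18 (SE 0.12) and the egress receptor S1pr1 at -0.17 (SE 0.14, with its other probe set at 0.050). Tcf7 was at 0.094 without lean pool 2 and at 0.10 without overfed pool 1, and S1pr1 at -0.085 without lean pool 3 and at -0.087 without overfed pool 3.

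Among 30 further cytotoxic and NK cell genes, 20 were higher and 10 lower, with a median log2 difference of 0.042. Beside Ncr1, the lowest unadjusted p-values belonged to granzyme M, Gzmm (0.19, SE 0.11), the NK receptor Klrc2 (0.18, SE 0.11, no overlap) and Srgn, the proteoglycan that packs granule proteins (0.20, SE 0.14). Without overfed pool 1, Srgn was at 0.054 and Klrc2 at 0.070, and without lean pool 3 Gzmm was at 0.13. None of these passed an adjusted p of 0.05 in limma.

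Of 18 measured chemokines and cytokines that draw and sustain lymphocytes, 14 were higher and 4 lower, with a median log2 difference of 0.15. At an unadjusted p under 0.05, 2 were higher and 1 lower, where 7.15% of all genes passed in either direction, and 0 passed the adjusted threshold in limma. Cxcl10, which attracts cells bearing the receptor Cxcr3, was at 0.23, 0.77 and 0.25 in the overfed pools, against -0.71, -0.23 and -0.74 in the lean pools. Its difference of 0.97 (SE 0.19, limma adjusted p = 0.623) stood beside 0.45 (SE 0.14) for Cxcl11, another ligand of that receptor, and both were without overlap. Cxcl9, a further ligand, had a difference of 0.17 (SE 0.20) with overlapping groups. Cxcr3 itself was at 0.29, 0.011 and -0.042 in the overfed pools, against -0.15, 0.36 and -0.011 in the lean pools, a difference of 0.020 (SE 0.16, interval -0.35 to 0.39). The membrane-bound chemokine Cx3cl1 was at -0.34 (SE 0.096, no overlap), and Cxcl16 at -0.31 (SE 0.16), or -0.16 without lean pool 3. The 4 receptors measured (Ccr4, Cx3cr1, Cxcr4 and Cxcr3) had differences between 0.020 and 0.066. Cxcl9 and the receptors were named after their values were seen. Of 7 measured ligands and costimulators on target cells, 4 were higher and 3 lower.

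Few probe sets correlated closely with these genes over the pools. Among 10262 named probe sets outside the lists with an SD of at least the median, 10 had a Pearson's r of 0.95 or more with the Cd3 mean over the 6 arrays, and 7 had an r as far below 0. The 5 genes with the highest r were Tox (0.99), Mbnl1 (0.98), Atad5 (0.97), Fam110a (0.97) and Runx1 (0.97). With the cytotoxic mean, 6 probe sets had 0.95 or more and 5 had an r as far below 0, led by Mpeg1 (0.98), Ube2q2 (0.97), Trem2 (0.97), Slamf9 (0.96) and Dnajb1 (0.96). Both means correlated with each other at r = 0.44, and with the all-leukocyte mean at 0.21 for the Cd3 chains and 0.80 for the cytotoxic genes. The Cd3 mean had its highest r among the cell type means compared, 0.78, with the ovarian genes, and was at 0.26 with macrophage, -0.26 with oviduct and cilium and -0.56 with smooth muscle genes. The cytotoxic mean was at 0.51 with ovarian, 0.32 with macrophage, -0.55 with oviduct and cilium and -0.18 with smooth muscle genes. These are descriptions over 6 arrays that share their pools and processing. The genes named for a high r are the top of the 10262 probe sets compared. How many such values unrelated genes would give over 6 arrays was not tested.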

How the data were processed

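Ovary RNA from 3 overfed and 3 lean rat pools was hybridized to 6 arrays. The authors deposited log2 values (base not stated, read as 2) relative to each probe set's median: it was 0 within 1e-06 in all 31099 rows. Per the submitters' processing notes, GCOS was used. How probe sets were summarised, normalized and filtered is not given in the sources used here. After 57 control probe sets were left out, 31042 were tested in limma 3.58.1 under R 4.3.3 (lmFit, then eBayes without trend, 2 groups), with no filter on dim probe sets (levels are unknown), two-sided, with p-values adjusted by Benjamini and Hochberg across the whole table (threshold 0.05). The fit was tested on simulated data. Of the tested probe sets 20826 had 1 gene name, 436 several and 9780 none. Symbols were updated through Entrez identifiers, which a RefSeq table held for 20758. The table held 0 columns of other series. A gene's representative probe set had a RefSeq mRNA first, then the unique type, then the lowest identifier. Named genes were the 10 members, the 4 lowest p-values of 4 lists, 2 markers of each cell type and the 5 genes most like each mean. Of 201 listed genes, 166 were found. Members and lists were chosen with earlier results of these data known. Alternatives were quantile normalization, centring arrays on their medians, array weights, a robust prior, a block by pool number, averaging a gene's probe sets and leaving out pools. Figures used matplotlib 3.10.9 under Python 3.11.15.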

Additional observations from a re-analysis of the deposited data

How the results depend on the processing

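The count of probe sets past limma's adjusted threshold was 0 under every alternative run, among them the pool number as a replicate block (0, with 1757 probe sets at an unadjusted p under 0.05 against 2070 without it). Of the 14 T and NK cell probe sets, 1 had an unadjusted p under 0.05 in limma with array weights (Cd3d, 0.25). Without overfed pool 1 the count was also 1 (Cd3e, second probe set, 0.37), so it ran from 0 to 1 with single pools left out. Whether the pool numbers pair the samples is not known. Deviations from the group means correlated at 0.097, 0.17 and -0.28 between same-numbered pools. Between pools of different number they correlated at -0.42 to 0.40. These values cannot decide it, since the deviations of the 3 pools of a group sum to 0. The robust prior and the replicate block leave the difference of a probe set unchanged, so their values could not turn in sign. With these counted among the 168 alternative values of single probe sets, 20 had the opposite sign, in 9 probe sets, and 148 kept theirs. With single pools left out, the ranges of these were -0.15 to 0.30 (Cd3e, first probe set) and -0.10 to 0.21 (Cd3g). They were -0.064 to 0.28 and -0.030 to 0.10 (Cd8b, Cd2) and -0.14 to 0.28 (Prf1). For both Gzmb probe sets they were -0.063 to 0.26 and -0.092 to 0.13, and for the second of Cd8a -0.12 to 0.015. Without lean pool 3 and overfed pool 1 together, Cd4 was 0.0082, Cd8b -0.0026, Cd2 -0.016 and Gzmb -0.047, the last also -0.026 with quantile normalization. Quantile normalization also gave 0.21 and 0.063 (Cd3e, first probe set, and Cd3g), 0.062 and 0.0011 (Cd8b, Cd2), 0.16 (Prf1) and -0.088 (Gzmb, second probe set). Array weights gave 0.26 and 0.12 (Cd3e, first probe set, and Cd3g), -0.025 (Cd8a, second probe set), 0.0059 (Cd2), and 0.013 and -0.074 (both Gzmb probe sets). Centring arrays gave -0.015 (Gzmb, second probe set). The cause was not tested. The Cd3 and cytotoxic mean differences ran from -0.031 to 0.21 and from -0.026 to 0.23 with single pools left out. Under quantile normalization the Cd3 mean difference was 0.17, the Cd3 minus cytotoxic difference was 0.061, and with a gene's probe sets averaged 0.018. What precision there is comes from 3 pools a group, and signal over background is unknown.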
